A study of Mus musculus with 5 samples.

Results

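Ribosome assembly and RNA exosome genes were followed in MLE-15 cells after knockdown of Grhl2, whose product is an epithelial transcription factor of the Grainyhead family. The set was built from gene symbols: RNA polymerase I subunits (Polr1), snoRNP proteins (Fbl, Dkc1, Gar1, Nhp2 and Nop genes), assembly factors (Utp, Nop, Rrp and 7 Wdr genes, Bop1, Pes1, Nolc1), the nucleolar proteins Ncl and Npm1, and RNA exosome subunits (Exosc). It held 59 of the 34760 probe sets on the array, for 55 of the 19937 genes that single-symbol probe sets name. All 59 lay above the filter on low signal used for the test. The set was put forward with results of this same comparison known, so its changes, calls and counts are given as a description and support nothing by themselves.

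MLE-15 cells are mouse lung epithelium, established from tumours of transgenic animals. Their transgene places SV40 large T antigen under the human SP-C promoter, and both groups share it. There were 3 cultures with an shRNA against Grhl2 and 2 with a non-targeting control shRNA, each a separate lentiviral transduction. Both vectors also carried a GFP reporter; infection was at a multiplicity of 50 for 16 h with polybrene at 5 µg/ml, and puromycin at 5 µg/ml selected stable lines over 6 days. A single hairpin against Grhl2 was used, and each culture was profiled on 1 array. Of 9 lung epithelium markers, Nkx2-1 read 9.99 to 10.01 and Sftpb 12.09 to 12.20 on the log2 scale, whereas Sftpc read only 6.15 to 7.17. After knockdown 7 of the 9 lay below the control mean, 4 of them with separated groups. Over all genes tested 50.9% lay above the control mean, and 20.5% had groups separated downward. Sftpd, a surfactant protein, fell by 0.33 (limma adjusted p = 0.0211), from 7.80 and 7.84 to 7.4, 7.5 and 7.55, and Abca3, the surfactant lipid transporter, was at −0.17 without passing. The part of these markers in the values that follow was not tested. Of the leukocyte markers, Ptprc read 4.11 to 4.30, which was below the filter, so it was not tested. Tyrobp rose by 0.28 to a low mean of 4.61 (limma adjusted p = 0.0198), and Cd68 was at −0.06 without passing. Grhl2 itself was at 7.43, 7.43 and 7.60 after knockdown and at 7.77 and 7.68 in the controls, which leaves 85.0% of the control signal. That difference missed the threshold (limma adjusted p = 0.082).

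Ribosomes are built in the nucleolus. RNA polymerase I transcribes a long precursor RNA, small nucleolar ribonucleoproteins (snoRNPs) modify it, and the small subunit processome and the large subunit assembly factors fold and cut it while ribosomal proteins join. The RNA exosome is a barrel of subunits with a cap of RNA-binding proteins, and its associated nucleases trim precursor ends and degrade the spacers that are cut out. Growing cells, and tumour cells in particular, keep this machinery highly expressed, and the transcription factor Myc is known to activate many of its genes through a DNA element called the E-box.

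Start-site sequences are given first, because they are a property of the genes that the choice of the set did not use. The motifs themselves were chosen with earlier results of these data known. RefSeq windows of 300 bases (assembly GRCm38.p6), from 250 before to 50 after an annotated start, were listed for 44 of the 55 genes, 52 windows in all. These 5 short motifs were searched on both strands: the E-box CACGTG, the core motif AACCGG of Grainyhead factors, the CCAAT box CCAAT, the ETS-type motif CCGGAAG and the NRF1 core motif GCATGCG. The 7-letter ETS motif and the 6-letter Grainyhead core motif share letters and can overlap. The ETS motif lay in 36.4% of the 44 genes, against 12.9% of the 17492 protein-coding genes with a window of the same length. The E-box lay in 20.5% against 8.91%, the Grainyhead core motif in 18.2% against 9.13%, and the NRF1 core motif in 9.09% against 4.96%. The CCAAT box was about as common in the set (40.9%) as in coding genes (42.3%). Median G and C content was 57.3% in the windows of the set and 56.3% in coding windows. These shares describe letters in a window and not bound sites.

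The 5 windows printed here hold both an E-box and an ETS motif (Utp18, Nop2, Utp4, Wdr46), or belong to a gene past the threshold and hold one of them (Gar1). The first 4 are shown because the E-box and the ETS motif meet in them, and Gar1 because it rose and carries the ETS motif. Capitals mark the E-box and the ETS motif, on either strand, and each sequence runs 5′ to 3′ along its gene.
Utp18 (chr11:93885717-93886016, minus strand): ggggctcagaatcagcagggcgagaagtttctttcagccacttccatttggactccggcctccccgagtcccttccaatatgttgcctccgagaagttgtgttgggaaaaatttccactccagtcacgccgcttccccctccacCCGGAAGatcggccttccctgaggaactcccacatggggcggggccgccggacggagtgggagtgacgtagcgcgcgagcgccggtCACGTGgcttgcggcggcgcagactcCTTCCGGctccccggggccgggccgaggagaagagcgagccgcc
Nop2 (chr6:125131633-125131932, plus strand): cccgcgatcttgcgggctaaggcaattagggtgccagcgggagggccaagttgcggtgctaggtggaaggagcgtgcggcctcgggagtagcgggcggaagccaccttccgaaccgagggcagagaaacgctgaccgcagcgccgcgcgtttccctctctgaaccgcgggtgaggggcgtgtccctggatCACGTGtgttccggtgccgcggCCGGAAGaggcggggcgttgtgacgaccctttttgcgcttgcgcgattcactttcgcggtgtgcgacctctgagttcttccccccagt
Utp4 (chr8:106893390-106893689, plus strand): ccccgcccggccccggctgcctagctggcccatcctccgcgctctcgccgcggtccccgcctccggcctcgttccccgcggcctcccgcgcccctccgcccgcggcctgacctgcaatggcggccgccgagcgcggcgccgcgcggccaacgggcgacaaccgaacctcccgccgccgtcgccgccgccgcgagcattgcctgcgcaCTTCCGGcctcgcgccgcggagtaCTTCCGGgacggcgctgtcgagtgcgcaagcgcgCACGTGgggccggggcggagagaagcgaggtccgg
Wdr46 (chr17:33940473-33940772, plus strand): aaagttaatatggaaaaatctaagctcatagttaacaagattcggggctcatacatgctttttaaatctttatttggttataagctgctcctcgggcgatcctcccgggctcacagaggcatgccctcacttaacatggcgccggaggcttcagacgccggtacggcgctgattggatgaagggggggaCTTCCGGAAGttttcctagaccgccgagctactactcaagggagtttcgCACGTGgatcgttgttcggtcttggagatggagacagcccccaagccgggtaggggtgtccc
Gar1 (chr3:129831347-129831646, minus strand): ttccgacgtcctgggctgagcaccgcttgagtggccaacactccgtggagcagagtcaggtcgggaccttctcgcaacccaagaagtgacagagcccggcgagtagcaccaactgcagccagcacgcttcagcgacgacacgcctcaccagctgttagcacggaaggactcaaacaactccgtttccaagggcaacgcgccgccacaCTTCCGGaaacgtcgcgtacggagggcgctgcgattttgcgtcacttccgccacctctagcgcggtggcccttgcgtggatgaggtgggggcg

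In Utp18 the E-box began 20 bases before the listed start, with ETS motifs beginning at 106 before and 7 after it. The E-box of Nop2 began 60 bases before its start and the ETS motif 38 before, whereas in Utp4 the E-box began at base 16 after the start. Genes with an E-box had a median log2 fold change of 0.12 and those with a window but no E-box 0.14. For the ETS motif the medians were 0.14 and 0.13, and for the Grainyhead core motif 0.12 and 0.14. For the CCAAT box they were 0.13 and 0.14, and for the NRF1 core motif, held by 4 genes, 0.06 and 0.14. These differences were not tested. Of the 6 genes past the threshold that had a window, 1 held an E-box, 2 held an ETS motif and 0 held the Grainyhead core motif.

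Most members lay slightly above the control in the knockdown cultures. A log2 fold change here is the knockdown mean minus the control mean, with the moderated standard error (SE) from limma, and a gene is said to have risen or fallen only where its Benjamini-Hochberg adjusted p over all 14979 genes tested was under 0.05. Of the 55 genes, 49 had values above 0 and 6 below, the lowest at −0.13 and the highest at 0.31. The median was 0.14 (1.10-fold), against a median of 0.00198 over all genes tested, of which 50.9% lay above 0. In bulk RNA, fewer cells of a kind and less RNA per cell cannot be told apart.

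**Figure D1:**
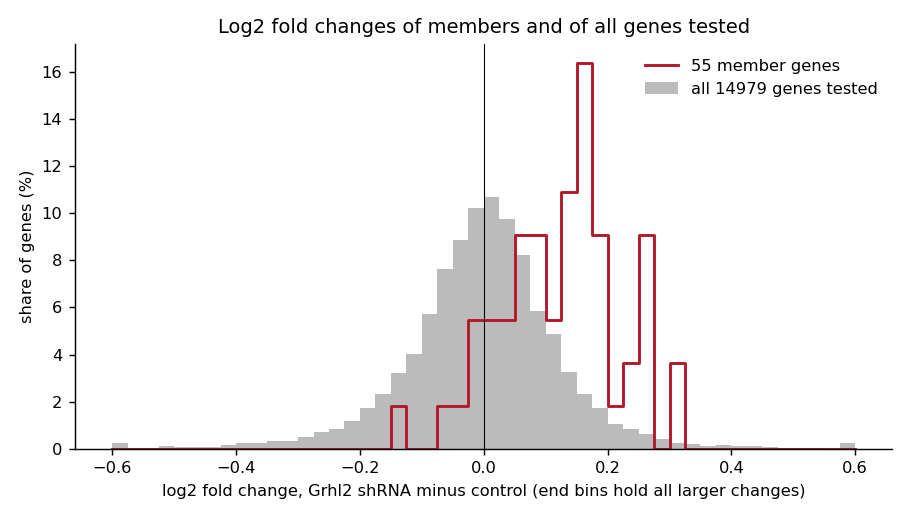
Share of genes (%) by log2 fold change (Grhl2 shRNA minus control) for all 14979 genes tested (grey bars) and for the 55 member genes (red line); the end bins hold all larger changes. The members centre on a median of 0.14, and all genes on a median near 0.

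The genes that rose were Nop14, Utp18, Gar1, Utp11, Wdr12, Dkc1, Exosc7 and Wdr36. That is 8 of 55, with 0 lower. Over all genes tested 6.38% were called, 2.86% higher and 3.52% lower. Adjusted p-values of the 8 ran from 0.024 to 0.0494, so all lay close to the threshold, and 9 further genes lay between 0.05 and 0.1. At an adjusted p under 0.1 the members counted 17 higher and 0 lower, beside 5.71% and 6.65% of all genes. At an unadjusted limma p under 0.05 there were 30 higher and 1 lower, beside 11.3% and 11.8% of all genes. The calls depended on the arrays: limma called 5 members without knockdown array 3, 4 of them among the 8, and 0 without knockdown array 1, knockdown array 2, control array 1 or control array 2. Those 4 fits called 453, 289, 91 and 67 of all genes. In them 22, 25, 24 and 18 members had an unadjusted limma p under 0.05 in either direction, beside 21.9%, 18.8%, 17.6% and 17.1% of all genes, and the median member log2 fold change was 0.117, 0.128, 0.142 and 0.123.

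In 38 of the 55 genes all 3 knockdown values lay above both control values, and in 1, Utp15, all lay below. Over all genes tested the groups were separated upward in 21.0% and downward in 20.5%. Because the set was chosen with this comparison in view, nothing is read from the gap between these shares.

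**Figure D2:**
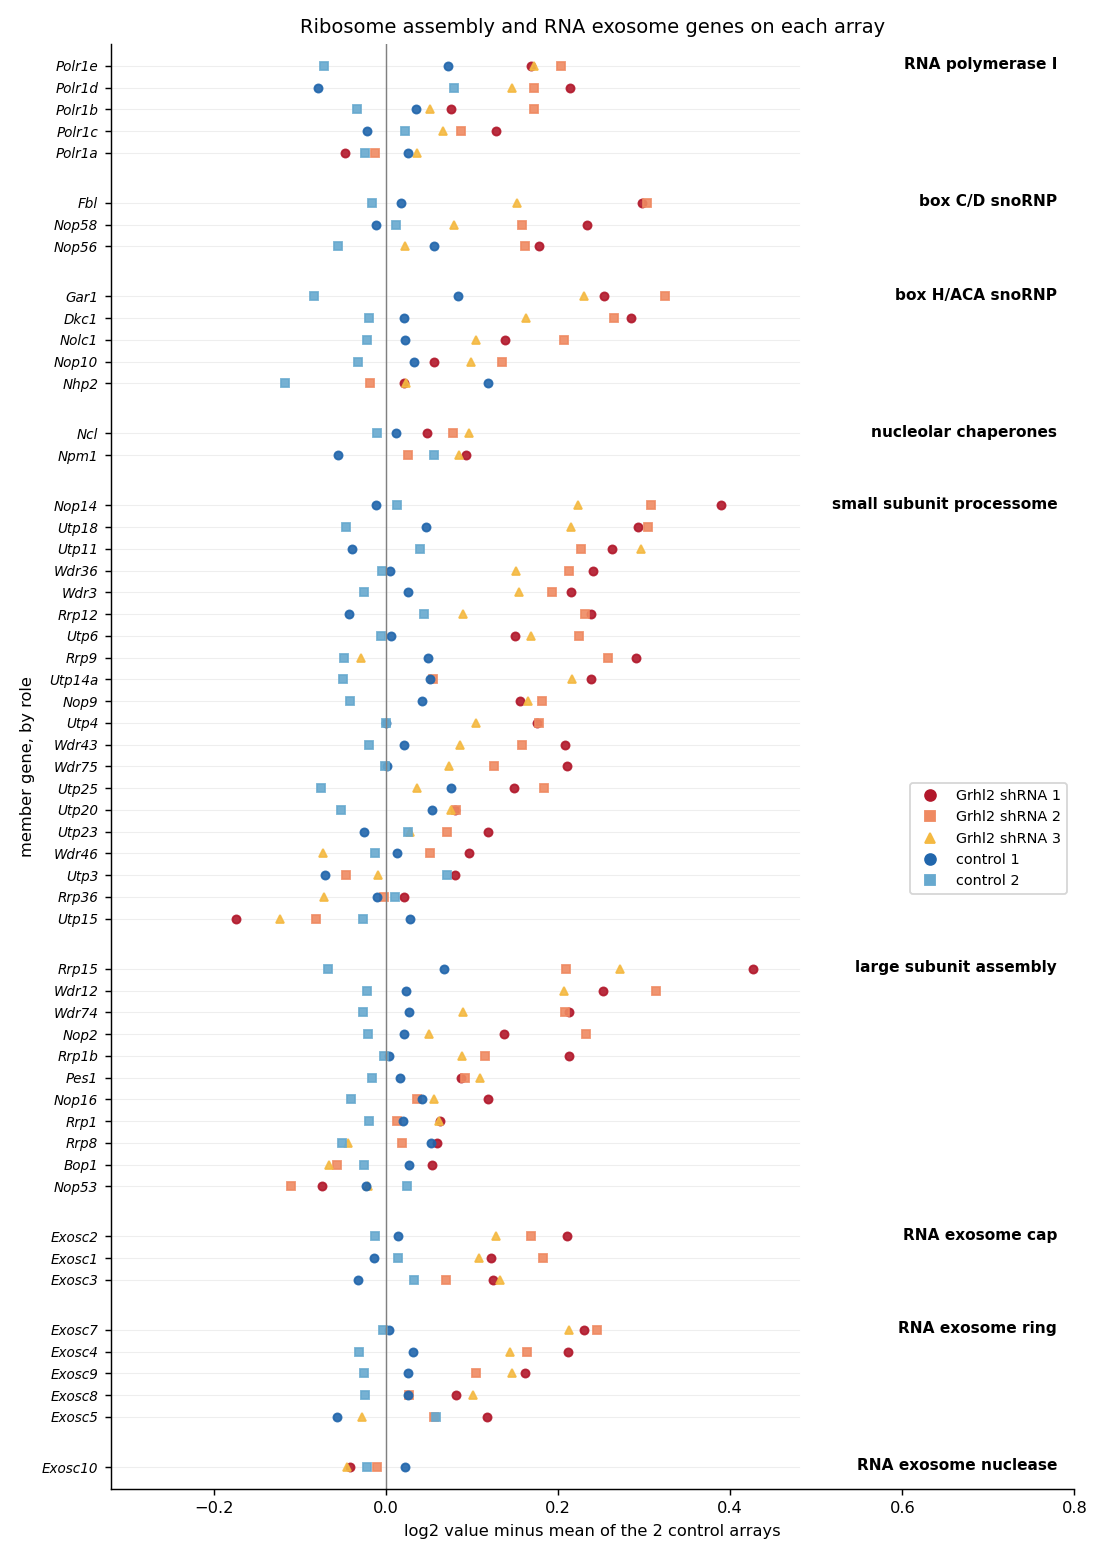
Log2 value minus the mean of the 2 control arrays for each of the 55 member genes, grouped by role, with 1 point per array (Grhl2 shRNA 1 to 3, control 1 and 2). In 38 genes all Grhl2 shRNA points lie to the right of both control points, and Utp15 is the only gene with all of them to the left.

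No gene of RNA polymerase I, which makes the precursor RNA, passed. Of its 5 measured subunits 0 passed the threshold, and the median log2 fold change was 0.10. At an unadjusted limma p under 0.05, 2 were higher, beside 11.3% of all genes tested. Polr1e, a subunit of the dimer that associates with the core enzyme, read 7.69, 7.73 and 7.70 in the knockdown and 7.60 and 7.45 in the control, a log2 fold change of 0.18 (SE 0.0531). Polr1d, which RNA polymerase I shares with RNA polymerase III, read 8.57, 8.52 and 8.5 against 8.27 and 8.43, also 0.18 (SE 0.0570). In both genes the groups were separated, but the value depended on which control was used. Without control array 1 Polr1e was at 0.25 and Polr1d at 0.10, and without control array 2 they were at 0.11 and 0.26. Polr1b, the second-largest subunit, was at 0.10 and Polr1c, the other subunit shared with RNA polymerase III, at 0.09. Polr1a, the catalytic subunit, had overlapping groups and a log2 fold change of −0.01, with a 95% confidence interval of −0.12 to 0.10.

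The box C/D snoRNP proteins guide methylation of ribosomal RNA. Fbl, the methyltransferase fibrillarin, read 10.11, 10.11 and 9.96 in the knockdown and 9.83 and 9.79 in the control. The groups did not overlap, and the log2 fold change of 0.25 (SE 0.0574) narrowly missed the threshold (limma adjusted p = 0.0503). Nop58, a core scaffold protein, read 10.15, 10.08 and 10.00 against 9.91 and 9.93, a log2 fold change of 0.16 (SE 0.0543). Its partner Nop56 was at 0.12, and there knockdown array 3 (10.84) fell between the controls (10.87 and 10.76).

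Box H/ACA snoRNPs convert uridine to pseudouridine, and 2 of the 5 genes of this group rose. Over all genes tested 2.86% rose. Gar1 read 9.05, 9.12 and 9.03 in the knockdown and 8.88 and 8.71 in the control, 1.21-fold higher (log2 fold change 0.27, SE 0.0611). Dkc1, the pseudouridine synthase dyskerin, read 8.13, 8.11 and 8.01 against 7.87 and 7.83, 1.18-fold higher (log2 fold change 0.24, SE 0.0511). Both genes were higher on every knockdown array than on either control array. The other core proteins did not pass: Nop10 was at 0.10 and Nhp2 at 0.01. For Nhp2 the controls (9.30 and 9.06) stood further apart than the 3 knockdown values (9.16 to 9.20), and the 95% confidence interval was −0.16 to 0.17. Nolc1, a chaperone of snoRNPs in the nucleolus, was at 0.15, and its groups did not overlap. Whether Dkc1 or Gar1 differed from Nhp2 was not tested.

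Neither abundant nucleolar chaperone passed (0 of 2, also at an unadjusted limma p under 0.05). Ncl (nucleolin) read 11.38, 11.41 and 11.43 in the knockdown and 11.35 and 11.32 in the control, a log2 fold change of 0.07 (SE 0.0409). Npm1 (nucleophosmin), a histone and ribosome chaperone, read 11.14, 11.07 and 11.13 against 10.99 and 11.10, also 0.07 (SE 0.0507), with overlapping groups. Without control array 1 the value of Npm1 was 0.01, and without control array 2 it was 0.12.

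The small subunit processome, the largest group, had 18 of 20 genes above 0 and a median of 0.16. Of these 4 rose, 0 fell and 16 did not pass. Over all genes tested 50.9% lay above 0, 2.86% rose and 3.52% fell. Nop14, a processome protein needed for maturation of the small subunit RNA, changed most: it read 9.33, 9.25 and 9.17 in the knockdown and 8.93 and 8.95 in the control, 1.24-fold higher (log2 fold change 0.31, SE 0.0563). Utp18 read 8.90, 8.91 and 8.82 against 8.66 and 8.56 (log2 fold change 0.27, SE 0.0507). Utp11 read 8.56, 8.52 and 8.59 against 8.25 and 8.33 (0.26, SE 0.0465). Wdr36, a beta-propeller protein, read 9.93, 9.91 and 9.84 against 9.70 and 9.69 (0.20, SE 0.0448). In each of the 4 genes the lowest knockdown value was above the higher control value.

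**Figure D3:**
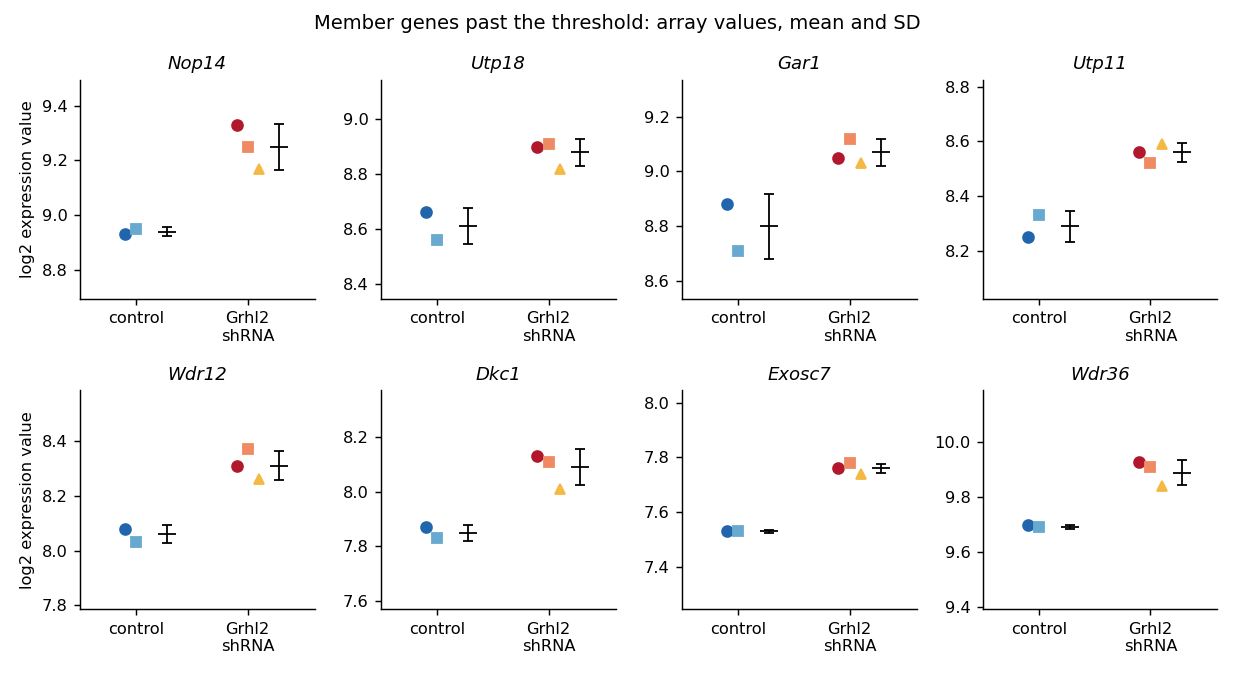
Log2 expression values of the 8 member genes past the threshold on the 2 control arrays (blue circle for array 1, blue square for array 2) and the 3 Grhl2 shRNA arrays (circle, square and triangle for arrays 1, 2 and 3), with the group mean and SD beside them; each panel spans 0.8 log2 units. In all 8 genes the lowest knockdown value lies above the highest control value.

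Utp18 and Wdr36 belong to the UTP-B complex, a module that joins the precursor RNA early. Its other members here were close behind: Wdr3 was at 0.19 (limma adjusted p = 0.0516) and Utp6 at 0.18. Of 2 further UTP-B genes outside the symbol rule, Pwp2 was at 0.18 and Tbl3 at 0.11, and neither passed. The UTP-A module is tied to transcription of the precursor. Utp4, Wdr43 and Wdr75 were at 0.15, 0.15 and 0.14. Outside the rule, Heatr1 was at 0.17 and Nol11 at 0.08, and neither passed. Utp15 of the same module read 8.51, 8.60 and 8.56 in the knockdown and 8.71 and 8.65 in the control, a log2 fold change of −0.13 (SE 0.0467, limma adjusted p = 0.16). It was the lowest value in the set and the only gene separated downward, and whether it differed from the rest of its module was not tested.

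Among the other processome genes, Rrp12, which acts in late maturation and export of subunits, was at 0.19, and Rrp9, a protein of the U3 snoRNP, at 0.17. Rrp9 had the largest SE of the set (0.0972): knockdown arrays 1 and 2 read 7.35 and 7.32 but array 3 read 7.03, within the control values of 7.11 and 7.01. Utp14a was at 0.17, Nop9 at 0.17, Utp25 at 0.12, Utp20 at 0.08 and Utp23 at 0.07. Wdr46, Utp3 and Rrp36 were at 0.03, 0.01 and −0.02, and their groups overlapped.

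The large subunit assembly factors ran from −0.07 to 0.30, and the small subunit processome from −0.13 to 0.31. Of the 11 large subunit genes, Wdr12 rose, 0 fell and 10 did not pass, with a median of 0.10. Over all genes tested 2.86% rose and 3.52% fell. Wdr12 works in a trimer with Pes1 and Bop1, known as PeBoW, that is needed to process the large subunit RNA. It read 8.31, 8.37 and 8.26 in the knockdown and 8.08 and 8.03 in the control, 1.2-fold higher (log2 fold change 0.26, SE 0.0480). Its partners were lower in value: Pes1 was at 0.10 (95% confidence interval 0.00 to 0.19) and Bop1 at −0.02 (−0.15 to 0.10). The difference between the 3 partners was not tested. Rrp15, a pre-ribosomal protein, had the second-largest value of the set, with readings of 7.62, 7.40 and 7.46 against 7.26 and 7.12. Its log2 fold change of 0.30 did not pass because its spread was wide (SE 0.0745, limma adjusted p = 0.061). Wdr74 was at 0.17, the methyltransferase Nop2 at 0.14 and Rrp1b at 0.14. Nop16, Rrp1 and the methyltransferase Rrp8 were at 0.07, 0.05 and 0.01. Nop53, which links pre-ribosomes to the exosome, was at −0.07 with overlapping groups.

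Of the RNA exosome, 9 subunits were measured, and all 8 of the cap and the ring lay above 0. The cap proteins bind RNA at the mouth of the barrel. Exosc2 read 9.18, 9.14 and 9.10 in the knockdown and 8.99 and 8.96 in the control (log2 fold change 0.17, SE 0.0442), and Exosc1 read 10.37, 10.43 and 10.35 against 10.23 and 10.26 (0.14, SE 0.0438). Exosc3, the third cap protein, was at 0.11. None of the 3 passed, all 3 had separated groups, and all had an unadjusted limma p under 0.05. Over all genes tested 50.9% lay above 0, 21.0% were separated upward and 11.3% were higher at that unadjusted limit.

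The ring subunits form the channel that RNA is threaded through. Exosc7 rose: it read 7.76, 7.78 and 7.74 in the knockdown and 7.53 and 7.53 in the control, 1.17-fold higher (log2 fold change 0.23, SE 0.0396). Its values were the tightest of the genes that rose, and its adjusted p (0.024, limma) was the smallest in the set. Exosc4 read 7.94, 7.90 and 7.88 against 7.76 and 7.70 (0.17, SE 0.0449), without passing. Exosc9 was at 0.14, Exosc8 at 0.07 and Exosc5 at 0.05, and in Exosc5 the groups overlapped.

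Exosc10, the nuclear nuclease of the complex, read 10.51, 10.54 and 10.50 in the knockdown and 10.57 and 10.53 in the control. The groups overlapped, and the log2 fold change was −0.03 (SE 0.0413), with a 95% confidence interval of −0.13 to 0.06. The point estimates of all 8 cap and ring subunits thus lay above that of Exosc10, but the interval of Exosc10 overlapped those of most of them and the difference was not tested.

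In 4 genes there was a second, dimmer probe set, with a difference of the same sign in each. Fbl was at 0.25 and 0.17, Wdr12 at 0.26 and 0.17, Polr1d at 0.18 and 0.09, and Exosc3 at 0.11 and 0.15. The 2 probe sets of Wdr12 are annotated with the same transcripts, as are in part those of Fbl and Polr1d. RNA from the gene and from a near-identical copy therefore cannot be told apart by name, and the call for Wdr12 rests on the brighter one.

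Knockdown array 3 was nearest to the controls. Over the 55 genes, the median distance from the control mean was 0.15 on knockdown array 1, 0.16 on array 2 and 0.09 on array 3. Array 3 held the lowest knockdown value in 35 of the 55 genes, whereas over all genes tested it did so in 37.1%. It was also the array with the highest Grhl2 value of its group, 7.60. With 3 arrays this is no relation that can be tested. The order differed by group: in the small subunit processome the medians were 0.19, 0.18 and 0.09, and in the exosome ring 0.16, 0.10 and 0.14. Of the controls, array 1 was the higher in 41 of the 55 genes, against 54.7% of all genes.

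**Figure D4:**
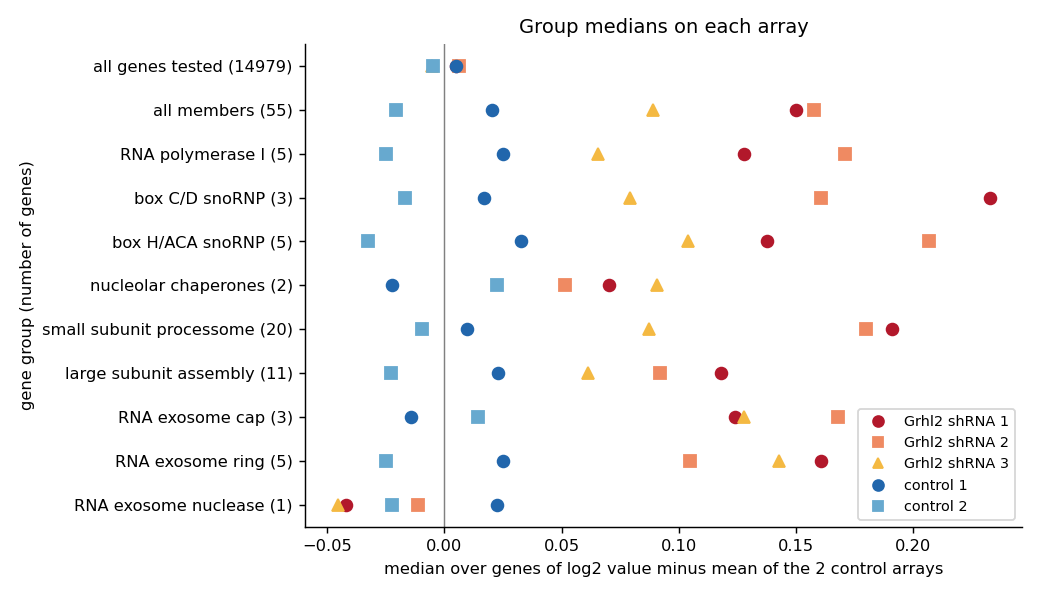
Median over the genes of each group of the log2 value minus the mean of the 2 control arrays, with 1 point per array. Over all 55 members Grhl2 shRNA arrays 1 and 2 sit at 0.15 and 0.16 and array 3 at 0.09, while for all genes tested every array sits within 0.01 of 0.

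Other genes of the pathway, from lists made by function and outside the symbol rule, were tested in the same fit. Of all genes in that fit 2.86% rose and 3.52% fell. At an unadjusted limma p under 0.05, 11.3% were higher, and 50.9% lay above 0. Over 104 genes in 5 lists, 1 rose and 4 fell; with each array centred on its median, 2 rose and 2 fell, and with any 1 array left out limma called 0 or 1. Of 32 further small subunit genes 0 passed, with 7 higher at an unadjusted limma p under 0.05; 28 lay above 0, and the median was 0.08. Aatf and Mphosph10, both processome-associated, had the largest values of that list, 0.22 and 0.19. Of 34 further large subunit genes, 32 lay above 0 with a median of 0.10. At an unadjusted limma p under 0.05, 17 were higher and 0 lower. Groups were separated upward in 20 and downward in 2, beside 21.0% and 20.5% of all genes tested. Tma16, a pre-ribosome factor, was the 1 that rose. It read 6.92, 6.91 and 6.88 in the knockdown and 6.70 and 6.71 in the control (0.19, SE 0.0402).

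None of the further genes listed with RNA polymerase I transcription passed. Of 9 genes 6 lay above 0, with a median of 0.07. At an unadjusted limma p under 0.05, 1 was higher, beside 11.3% of all genes tested. Taf1a, of the promoter selectivity complex, was at 0.15 and Mybbp1a at 0.12. The initiation factor Rrn3 was at 0.07 and Ubtf, which opens ribosomal DNA for transcription, at 0.06.

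The Myc network acts through the E-box. Myc read 10.07, 10.11 and 9.98 in the knockdown and 9.85 and 9.86 in the control. Its groups did not overlap, and the log2 fold change of 0.20 (SE 0.05) did not pass (limma adjusted p = 0.066). Of 10 genes of the network 3 fell and 0 rose, beside 3.52% and 2.86% of all genes tested. At an unadjusted limma p under 0.05, 5 were lower and 1 higher, beside 11.8% and 11.3% of all genes tested. Mxd1 and Mxd4 encode Max-binding repressors that oppose Myc at E-boxes. Mxd1 read 8.05, 8.0 and 8.09 against 8.38 and 8.25 (−0.27, SE 0.0541), and Mxd4 read 8.36, 8.42 and 8.48 against 8.66 and 8.63 (−0.22, SE 0.0494). With each array centred on its median Mxd4 did not pass (limma adjusted p = 0.055). The third was Mycl, a Myc paralog, which read 6.10, 6.06 and 6.04 against 6.33 and 6.29 (−0.24, SE 0.0424). Mycn, another Myc paralog, was at −0.17 with separated groups, without passing.

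Of 19 cofactors of the exosome and other RNA decay genes, 7 lay above 0 and 12 below, with a median of −0.02. Over all genes tested 50.9% lay above 0, the median was 0.00198 and 6.38% were called. Skiv2l, a helicase that feeds RNA to the cytoplasmic exosome, read 8.72, 8.79 and 8.71 in the knockdown and 8.91 and 8.98 in the control. It fell by 0.20 on the log2 scale (SE 0.0466, limma adjusted p = 0.0499), and was the 1 gene of the list that passed. With each array centred on its median Skiv2l did not pass (limma adjusted p = 0.06). Dis3, the other nuclease of the nuclear complex, was at 0.09, and Mtrex, the nuclear helicase partner, at −0.01. The difference between this list and the subunits was not tested.

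**Figure D5:**
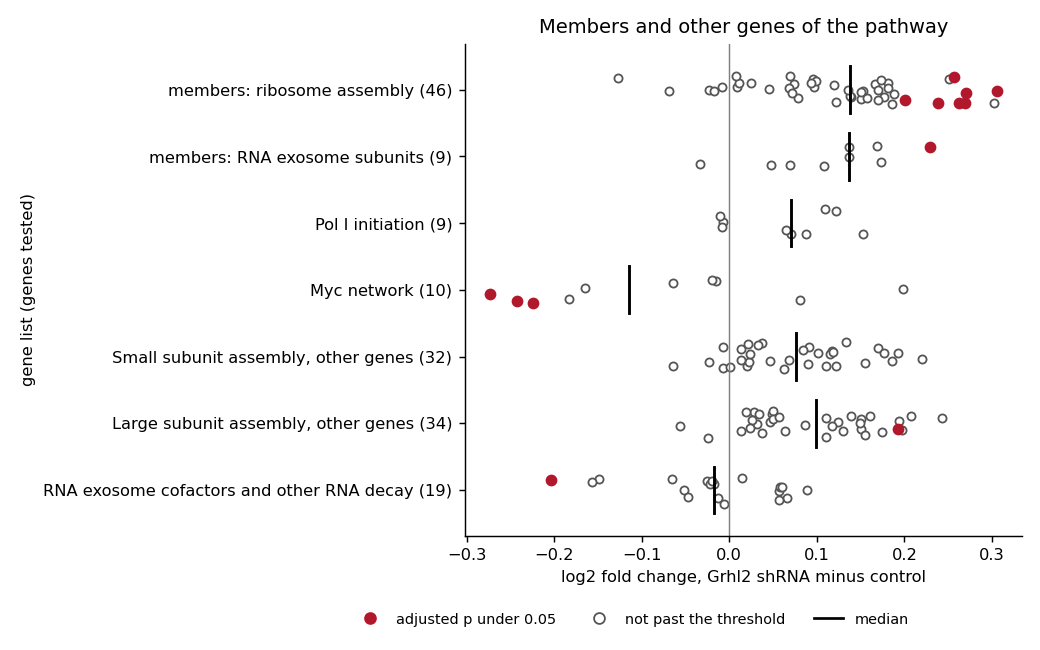
Log2 fold change (Grhl2 shRNA minus control) of each gene of the set and of the 5 other lists, with the number of genes tested; filled points passed an adjusted p under 0.05 and bars mark medians. Members have medians of 0.14, further small and large subunit genes 0.08 and 0.10, RNA decay genes −0.02 and the Myc network −0.11, with vertical position within a row random.

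Markers of cell division were given beside these values, since growth and ribosome assembly are linked. Of 5 measured, 3 lay above 0 and 2 below: Top2a was at 0.13, Cdk1 at 0.10, Mcm2 at 0.01, Mki67 at −0.07 and Pcna at −0.12. None passed, and 2 were higher at an unadjusted limma p under 0.05, beside 11.3% of all genes tested. The part of these markers in the values above was not tested. Of 7 markers of leukocytes, endothelium and fibroblasts that passed the filter, Tyrobp rose by 0.28 to a low mean of 4.61. The other 6 lay between −0.15 and −0.00023. Their part was likewise not tested.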

How the data were processed

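RNA from 3 Grhl2 shRNA and 2 control cultures was measured on 1 array each, from 300 ng of total RNA. The authors deposited log2 values; per the submitters' processing notes, Affymetrix Expression Console and RMA were used. No version or filter is given in these sources. RMA makes the value distributions of all arrays alike, so a shift shared by most genes would not be visible. Gene names came from the platform annotation. Of 34760 probe sets 21640 had a single symbol; those with a mean log2 value of at least 4.224 (25th percentile) were kept (16230), and the brightest stood for each of 14979 genes.

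Groups were compared with limma 3.58.1 (lmFit and eBayes, two-sided, no trend) in R 4.3.3, with Benjamini-Hochberg adjustment over all genes and a threshold of 0.05. The fit was also run on simulated arrays with independent noise. That check set a bar for recovery only at a log2 change larger than any member's. Smaller changes, of the size reported here, were also simulated, but their recovery was held to no bar and is not given here. With 3 residual degrees of freedom, the number of arrays limits precision: the median SE of a log2 fold change was 0.051.

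The member genes, their roles, the other lists, motifs and the named-gene rule (all genes that passed, and the 2 largest changes of each role; up to 4 genes that passed, or the 2 largest changes, of each other list) were chosen with earlier results of these data known, and Utp25 was given its role after the files were seen. UTP-A, UTP-B, PeBoW and H/ACA groupings and genes named outside the rule were chosen after their values were seen. Older symbols in the lists were matched through RefSeq synonyms. Promoter windows are RefSeq's; no build is given for the array values, so no array positions are printed. Alternatives covered the filter, normalization, probe set choice, variance prior, weights per array, a block on replicate number, the threshold and each array left out.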

Additional observations from a re-analysis of the deposited data

How the results depend on the processing

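The sign of 47 of the 55 members held under all alternatives run. Changing the filter, the variance prior or the threshold cannot alter a member's log2 fold change. Signs in the fit of all single-symbol probe sets were read from the same probe sets, so they could not turn either. Only normalization, the mean of probe sets, array weights, the block and left-out arrays could turn a sign. Under at least 1 of these it turned for Bop1, Exosc5, Nhp2, Polr1a, Rrp36, Rrp8, Utp3 and Wdr46, none of which passed the threshold. The widest range among these genes was that of Nhp2, from −0.11 to 0.13. The median log2 fold change of the members stayed between 0.117 and 0.166, with 47 to 50 of the 55 genes above 0. The calls did not hold as well. With no filter, limma called 418 genes in all, 0 members (29 with an unadjusted p under 0.05) and 0 of the other lists (27). With the filter at the 50th percentile the counts were 1708, 20 and 20. They were 2034, 24 and 22 with a trended robust prior, 9, 0 and 0 with no moderation (22 members and 29 others with an unadjusted p under 0.05), and 1851, 17 and 19 at an adjusted p under 0.1. Tests of all single-symbol probe sets called 3 in the other lists. Leaving out 1 array gave 67 to 493 calls in all, 0 to 5 among members and 0 to 1 in the other lists; a lone control was then assumed to vary like the other arrays. The replicate number as a block gave 172 calls in all, 0 members (32 with an unadjusted p under 0.05) and 0 in the other lists (35). Number 3 occurs only among the knockdown cultures, so knockdown array 3 does not enter the fold changes of this fit. They equal those of the fit without that array, with a member median of 0.166 in both. The numbers are not shown to pair the cultures, since deviations of equal numbers correlated at 0.0572 and 0.0189 over genes. Centring, repeated quantile normalization, array weights and the mean of probe sets kept the member count between 7 and 11. What these 5 arrays can resolve is limited: a member's SE ran from 0.0396 to 0.0972.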

Other observations

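Probe sets annotated with several symbols were not counted as members, although 5 of them name one. The probe set shared by Aars and Exosc6, a ring subunit of the exosome, had a mean of 9.73 in the knockdown and 9.62 in the control, and that shared by Utp14b and Acsl3 had 9.95 and 10.03. The 3 probe sets named for Gm15484 and Npm1 differed by 0.12, 0.03 and 0.08 (knockdown minus control). None of these values can be assigned to 1 gene.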
